A study of Rattus norvegicus with 6 samples.

Results

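The genes described here are 41 genes of the interferon response and of antigen presentation, measured on oligonucleotide arrays in rat Schwann cells that carry an inducible form of the kinase Raf and received vehicle or tamoxifen. They were taken by gene symbol from the array's annotation, which gave 57 of the 31042 probe sets tested (a probe set is the group of short probes that reads a transcript) and 40 of the 14217 genes. The symbol Rigi matched no probe set. Primary Schwann cells from rat sciatic nerve, the glia that wrap peripheral axons, carried an inducible RafER allele on all 6 arrays, with vehicle and with tamoxifen alike. In RafER the kinase is fused to the ligand-binding region of the estrogen receptor, so that tamoxifen switches it on. The cells were plated in medium with serum, moved to a minimal medium without it, and then received ethanol (vehicle, titles RafERtx-) or tamoxifen (titles RafERtx+) for 24 h. There were 3 arrays a group, numbered 1 to 3 in the titles, and the design text calls the 3 experiments independent. The source labels speak of treated rats, whereas the design text has cells treated in culture, which was followed here. How the allele was introduced and which promoter drives it are not given in the sources used here. No culture lacking RafER was analysed here, so effects of Raf and effects of tamoxifen itself cannot be told apart.

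Interferons are secreted by cells that sense viral nucleic acid. They bind receptors at the cell surface, and the kinases bound to these receptors phosphorylate STAT proteins. Stat2 and Irf9 are subunits of the complex that binds the interferon-stimulated response element (ISRE) in the promoters of antiviral genes. Interferon-gamma acts through another receptor, and it is known for raising the genes of antigen processing and of the major histocompatibility complex (MHC). Peripheral nerve glia are known to take up MHC expression under inflammatory conditions.

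With tamoxifen for 24 h, Schwann cells had lower transcript levels of Stat2 and Irf9, which are subunits of the complex that binds the ISRE, while a small set of antiviral genes that this complex is known to drive stood higher. Usp18 rose 3.35-fold, Mx2 2.95-fold, Oasl 2.67-fold and Ifit3 2.31-fold, each by its brightest probe set. The other probe set of Mx2 did not pass (0.09 log2 units), and the mean of both rose by 0.82 log2 units. Vehicle values of Mx2 (3.86 to 4.14) and Ifit3 (4.01 to 4.09) were low, where the lowest values on any array were about 3. Of 15 antiviral effectors 9 did not pass, among them Ifit1, Mx1 and Oas1a (differences of 0.08, 0.08 and 0.22 log2 units), and Ifit2 fell. Stat2 fell 2.18-fold and Irf9 fell 2.02-fold. Among other genes of the pathway the class I MHC gene RT1-S3 rose about 20-fold, by 4.29 to 4.44 log2 units on each of its 4 probe sets, whereas the interferon-inducible GTPase genes Irgm2 (which fell by 2.34 log2 units) and Igtp (which fell by 1.78) stood lower.

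Of the 40 measured members, each read by its probe set of highest mean, 10 rose, 6 fell and 24 did not pass the limma test at an adjusted p of 0.05. Over all genes 13.9% rose and 17.3% fell, so 31.2% were called, against 40.0% of the members. The members were chosen with earlier results of these data known, so this comparison is descriptive only. Of the 57 member probe sets 10 rose and 8 fell, where 11.5% and 12.9% of all probe sets did. The groups did not overlap for 20 of the 40 genes, and for 49.1% of all genes. The median difference of the members was 0.08 log2 units, beside 0.01 for all genes. A call with a size of at least 1 log2 unit was made for 6 members, and for 11.8% of all genes. By role, 2 of 3 measured RNA sensing genes rose, 1 of 6 receptor, kinase and STAT genes rose and 3 fell, and 1 of 3 feedback inhibitors rose. Of 5 IRF transcription factors 1 rose and 1 fell, of 15 antiviral effectors 5 rose and 1 fell, and of 6 class I processing genes 1 fell. For the 2 class II genes limma called none, also at an unadjusted p under 0.05. Without tamoxifen array 1 or without tamoxifen array 3, the count of members that rose was 6. The count that fell was 2 without tamoxifen array 2, and 3 without vehicle array 2 or without vehicle array 3.

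**Figure D1:**
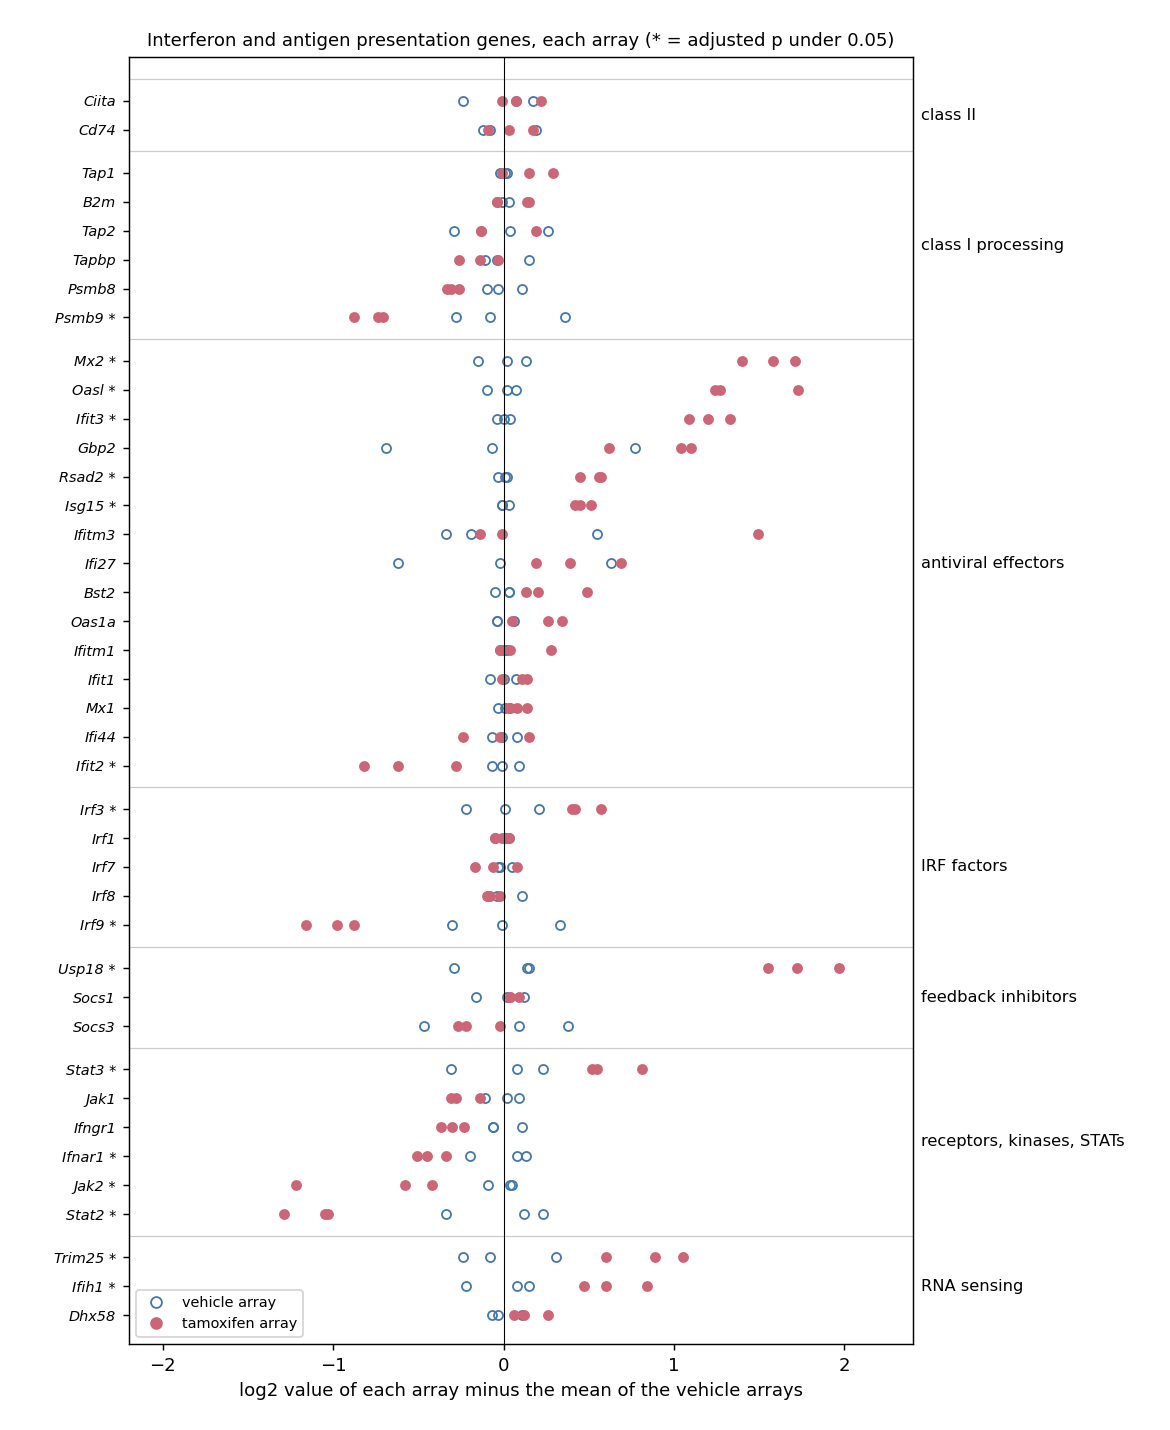
Log2 value of each array minus the mean of the vehicle arrays of the same gene (horizontal axis, log2 units) for the 40 measured members, by role; open circles are vehicle arrays, filled circles tamoxifen arrays, and a star marks an adjusted p under 0.05. The tamoxifen arrays lie to the right of the vehicle arrays for Usp18, Mx2, Oasl and Ifit3 and to the left for Stat2 and Irf9, while most other members lie near 0.

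The promoters of the pathway's genes are shown because the ISRE is what ties many of these genes to the complex that holds Stat2 and Irf9. In RefSeq's promoter windows of assembly GRCr8, 250 bases before to 50 after each gene's start, 31 of the 40 members had a window. The core of the element, GAAA on both sides of a gap of any 2 bases, on either strand and with overlapping matches counted, was in 16 of these 31 windows (51.6%). It was in 2.99% of the windows of 11733 genes measured on the array and in 3.92% of all 33469 windows. Of members that rose it was in 3 of 7 windows, of members that fell in 0 of 5, and of members that were not called in 13 of 19. The 3 windows were those of Ifit3, Rsad2 and Ifih1. For Usp18, Mx2 and Oasl there was no match, whether for lack of a window or of the letters. Among 76 further genes of the pathway it was in 25, that is in 7 of 10 that rose, 10 of 19 that fell and 8 of 47 that were not called. The core of the STAT site, TTCNNNGAA, which reads the same on both strands, was in 8 of 31 member windows (25.8%) and in 6.99% of those of genes on the array. It was in 0 of 7 windows of members that rose, 1 of 5 that fell and 7 of 19 that were not called, and among the further genes in 0 of 10, 5 of 19 and 9 of 47. A match is a string of letters and not a measured binding site, and a window without a match says nothing about a factor.

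The stretches that follow hold the ISRE core of genes that rose (Ifit3, Rsad2, Ifih1, Cxcl10, RT1-S3, RT1-N3), that fell (Igtp, Irgm2) and that were not called (Oas1a, Tap1, B2m). The last stretch holds the STAT core of Irf9, the only member that fell with such a match. They were chosen after the values were seen. Each is written 5′ to 3′ on the strand of the gene, lies wholly before the gene's start, and has the matched core in capitals.
Ifit3, chr1:241527262-241527311, plus strand: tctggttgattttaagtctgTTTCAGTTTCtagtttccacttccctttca
Rsad2, chr6:48788238-48788287, minus strand: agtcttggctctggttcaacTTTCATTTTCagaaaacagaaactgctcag
Ifih1, chr3:67683998-67684047, minus strand: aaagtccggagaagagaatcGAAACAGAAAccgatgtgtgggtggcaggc
Cxcl10, chr14:15988816-15988852, plus strand: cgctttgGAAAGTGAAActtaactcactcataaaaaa
RT1-S3, chr20:2675396-2675445, plus strand: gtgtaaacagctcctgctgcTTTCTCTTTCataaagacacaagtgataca
RT1-N3, chr20:2666262-2666311, plus strand: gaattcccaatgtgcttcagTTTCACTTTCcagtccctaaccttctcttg
Igtp, chr10:42874924-42874973, plus strand: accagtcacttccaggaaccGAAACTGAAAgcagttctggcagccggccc
Irgm2, chr10:42889848-42889897, plus strand: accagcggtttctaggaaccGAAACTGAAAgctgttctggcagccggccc
Oas1a, chr12:41330405-41330460, plus strand: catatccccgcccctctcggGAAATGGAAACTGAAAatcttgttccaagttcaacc
Tap1, chr20:4668635-4668684, minus strand: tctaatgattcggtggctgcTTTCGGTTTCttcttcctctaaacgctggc
B2m, chr3:129549160-129549209, plus strand: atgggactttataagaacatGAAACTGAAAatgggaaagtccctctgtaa
Irf9, chr15:33065717-33065766, plus strand: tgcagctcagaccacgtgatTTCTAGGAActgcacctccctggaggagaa
The core starts 44 bases before the gene's start in Ifit3, 147 in Rsad2, 59 in Ifih1, 243 in Cxcl10 and 112 in RT1-S3. The stretches of Igtp and Irgm2, whose windows lie 14924 bases apart on chromosome 10, are identical at 44 of 50 bases, and both genes fell. Both stretches also hold a STAT core, in lower case, 114 bases before the start in Igtp and 113 in Irgm2. Oas1a carries 2 overlapping cores, which gives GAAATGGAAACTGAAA, and was not called.

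On the side of the receptors and their kinases, 3 of 6 members fell and 1 rose. Values are log2 expression values, given in the order of experiments 1, 2 and 3, and differences are tamoxifen minus vehicle with the standard error (SE) of the model. Stat2, a subunit of the ISRE-binding complex, read 8.32, 7.75 and 8.21 on the vehicle arrays and 7.06, 6.80 and 7.04 on the tamoxifen arrays. Every tamoxifen value lay below every vehicle value, and Stat2 fell by 1.13 ± 0.17 (adjusted p = 0.00448). Its dimmer probe set fell by 1.47 ± 0.12. Jak2, a kinase of the interferon-gamma receptor, read 7.84, 7.83 and 7.70 with vehicle and 7.37, 7.21 and 6.57 with tamoxifen, and fell by 0.74 ± 0.21 (adjusted p = 0.0419). The lowest tamoxifen value, from experiment 3, set much of its spread, and the groups did not overlap. The Jak2 call was lost on leaving out tamoxifen array 2 (adjusted p = 0.0788) and on leaving out vehicle array 1 (0.0860), 2 (0.106) or 3 (0.0781). It was also lost with quantile normalization (adjusted p = 0.0565) and cyclic loess (0.0590).

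Ifnar1, a chain of the receptor for interferon-alpha and -beta, was read by 6 probe sets that disagreed. Its brightest gave 8.91, 9.24 and 9.19 with vehicle and 8.77, 8.66 and 8.60 with tamoxifen, and fell by 0.43 ± 0.12 (adjusted p = 0.0361), with all tamoxifen values below all vehicle values. The other 5 did not pass, with differences of -0.59, -0.32, -0.13, -0.02 and -0.02. The vehicle array of experiment 1 stood apart in 3 of them, for example at 7.73 against 9.54 and 9.56 on the other vehicle arrays. Without that array these 3 fell by 0.74 (adjusted p = 0.00463), 0.69 (0.00622) and 0.86 (0.0114). In the brightest probe set the call was lost on leaving out each of the other 5 arrays: without tamoxifen array 1 (adjusted p = 0.0597), 2 (0.107) or 3 (0.112), or vehicle array 2 (0.105) or 3 (0.101). It was also lost with the experiment number as a block (adjusted p = 0.0625), with quantile normalization (0.0748) and cyclic loess (0.103), with eBayes with trend and robust (0.0630), and with the mean of the 6 probe sets, where the difference was -0.25 (0.390). That vehicle array had weaker 5′ signal on rat control transcripts, with a mean 3′ minus 5′ difference of 0.84 log2 units there and 0.16 to 0.27 on the remaining arrays. The part of this signal loss in the values of Ifnar1 was not tested.

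Ifngr1, the ligand-binding chain of the interferon-gamma receptor, read 10.15, 10.15 and 10.32 with vehicle and 9.91, 9.98 and 9.84 with tamoxifen. The groups did not overlap, and the difference of -0.30 ± 0.09 did not pass (adjusted p = 0.0581). It passed with median centring (adjusted p = 0.0354) and in a fit to 1 averaged value per gene (0.0415). The kinase gene Jak1 showed -0.24 ± 0.10 (adjusted p = 0.119). Stat3, which relays signals of the interleukin-6 family, went the other way: 9.32, 9.86 and 9.71 with vehicle against 10.44, 10.15 and 10.18 with tamoxifen, a rise of 0.63 ± 0.16 (adjusted p = 0.0321). Its dimmer probe set gave 0.02 ± 0.16 (adjusted p = 0.953), so the rise rests on 1 of 2 probe sets. The Stat3 call was lost on leaving out tamoxifen array 1 (adjusted p = 0.0952), 2 (0.0693) or 3 (0.0726) and on leaving out vehicle array 3 (0.0616). It was also lost with the experiment number as a block (adjusted p = 0.0589) and with the mean of the 2 probe sets, at 0.32 (0.0666).

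Among feedback inhibitors Usp18 had the largest rise of all members. Usp18 removes the ubiquitin-like protein Isg15 from its targets and blocks signalling at the interferon receptor. It read 5.80, 5.79 and 5.36 with vehicle and 7.62, 7.37 and 7.20 with tamoxifen. The lowest tamoxifen value was 1.39 above the highest vehicle value, and the rise was 1.74 ± 0.16 (adjusted p = 0.00103). The suppressors of cytokine signalling did not pass: Socs1 showed 0.06 ± 0.10 and Socs3, an early target of Stat3, showed -0.17 ± 0.22 (adjusted p = 0.635) from values of 6.09 to 6.94 with vehicle and 6.29 to 6.54 with tamoxifen.

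Of the IRF transcription factors, Irf9 fell on both of its probe sets. Irf9 gives the ISRE-binding complex its contact with DNA. The brighter probe set read 8.36, 8.65 and 8.99 with vehicle and 7.68, 7.78 and 7.50 with tamoxifen, and fell by 1.01 ± 0.17 (adjusted p = 0.00696), and the dimmer one fell by 1.37 ± 0.14 (adjusted p = 0.00141). The groups did not overlap on either. Irf3, which turns on interferon-beta after RNA sensing, read 9.76, 9.56 and 9.33 with vehicle and 9.95, 10.12 and 9.97 with tamoxifen, a rise of 0.46 ± 0.13 (adjusted p = 0.0426). The groups lay close but did not overlap. The Irf3 call was lost on leaving out vehicle array 2 (adjusted p = 0.0977) or 3 (0.0943), tamoxifen array 1 (0.0824), 2 (0.136) or 3 (0.0970), with median centring (0.0617) and with eBayes with trend and robust (0.0566). Irf1, Irf7 and Irf8 showed differences of -0.06 to -0.01. Irf7, which amplifies the interferon response, read 5.65 to 5.90 over all 6 arrays.

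Of the 3 genes of cytoplasmic RNA sensing, 2 rose by under 1 log2 unit. Ifih1, which encodes the sensor MDA5, read 6.77, 7.14 and 7.07 with vehicle and 7.83, 7.46 and 7.59 with tamoxifen, a rise of 0.63 ± 0.14 (adjusted p = 0.0203) with no overlap of the groups. Its call was lost on leaving out tamoxifen array 1 (adjusted p = 0.0577) or 3 (0.0575). Trim25, a ubiquitin ligase that helps to activate RIG-I, read 8.49, 8.10 and 7.94 with vehicle and 9.07, 8.78 and 9.23 with tamoxifen. All tamoxifen values were above all vehicle values, and Trim25 rose by 0.85 ± 0.18 (adjusted p = 0.0154). That call was lost on leaving out vehicle array 2 (adjusted p = 0.0502) and on leaving out tamoxifen array 1 (0.0504) or 3 (0.0534). Dhx58, a regulator of these sensors, showed 0.14 ± 0.10. A probe set listed under the symbol Rig1, for which RefSeq gives Ddx58 as a synonym, another name of the RIG-I gene, was left out of the counts. It showed -0.07 ± 0.18 (adjusted p = 0.842), with values of 7.04 to 7.69 with vehicle and 7.10 to 7.36 with tamoxifen.

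Of the 15 antiviral effectors, 5 rose. Mx2, a dynamin-like GTPase that blocks viruses, read 4.03, 3.86 and 4.14 with vehicle and 5.72, 5.41 and 5.59 with tamoxifen, a rise of 1.56 ± 0.12 (adjusted p = 0.000569). Its other probe set stayed at 3.71 to 3.97 over all arrays (0.09 ± 0.09, adjusted p = 0.572), so the rise of Mx2 rests on 1 of 2 probe sets, and the mean of both rose by 0.82. Oasl, a protein of the oligoadenylate synthetase family, read 5.57, 5.62 and 5.45 against 7.28, 6.79 and 6.82, a rise of 1.42 ± 0.15 (adjusted p = 0.00141). The groups of Mx2 and of Oasl were more than 1 log2 unit apart.

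Ifit3, which binds viral RNA together with its relatives, read 4.09, 4.05 and 4.01 with vehicle and 5.25, 5.38 and 5.14 with tamoxifen, a rise of 1.21 ± 0.09 (adjusted p = 0.000585). Its relatives differed from it. Ifit2 fell by 0.58 ± 0.15 (adjusted p = 0.0302), from 7.11, 7.01 and 6.95 to 6.74, 6.20 and 6.40, and Ifit1 showed 0.08 ± 0.09 at 4.77 to 4.99. The groups of Ifit2 did not overlap, and its dimmer probe set did not pass (-0.37, adjusted p = 0.0835). The Ifit2 call was lost on leaving out vehicle array 1 (adjusted p = 0.0693), 2 (0.0761) or 3 (0.0586) and on leaving out tamoxifen array 2 (0.0837) or 3 (0.0941).

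Rsad2, which encodes the antiviral enzyme viperin, read 4.50, 4.45 and 4.49 against 5.04, 5.05 and 4.93, a rise of 0.53 ± 0.08 (adjusted p = 0.00491). Isg15, the ubiquitin-like modifier that Usp18 removes, read 6.14, 6.18 and 6.14 against 6.57, 6.66 and 6.60, a rise of 0.46 ± 0.08 (adjusted p = 0.00725). These rises were small but several times the spread within a group, which was 0.02 to 0.07 (SD, n = 3). Mx1, a relative of Mx2, read 3.89 to 3.96 with vehicle and 3.95 to 4.06 with tamoxifen (0.08 ± 0.08, adjusted p = 0.539).

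The other effectors that did not pass had differences of -0.04 to 0.92. The guanylate-binding GTPase gene Gbp2 showed the last of these values, 0.92 ± 0.36 (adjusted p = 0.113). Gbp2 read 11.10, 11.72 and 12.56 with vehicle and 12.89, 12.83 and 12.41 with tamoxifen, so that the groups overlapped only through experiment 3. Without vehicle array 3 its difference was 1.30 (adjusted p = 0.0165). The restriction factor gene Ifitm3 read 4.15 to 5.04 with vehicle and 4.35, 4.48 and 5.98 with tamoxifen, and on leaving out tamoxifen array 3 its difference turned from 0.45 to -0.08. Ifi27, Bst2, Oas1a, Ifitm1 and Ifi44 showed 0.43, 0.27, 0.22, 0.10 and -0.04.

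**Figure D2:**
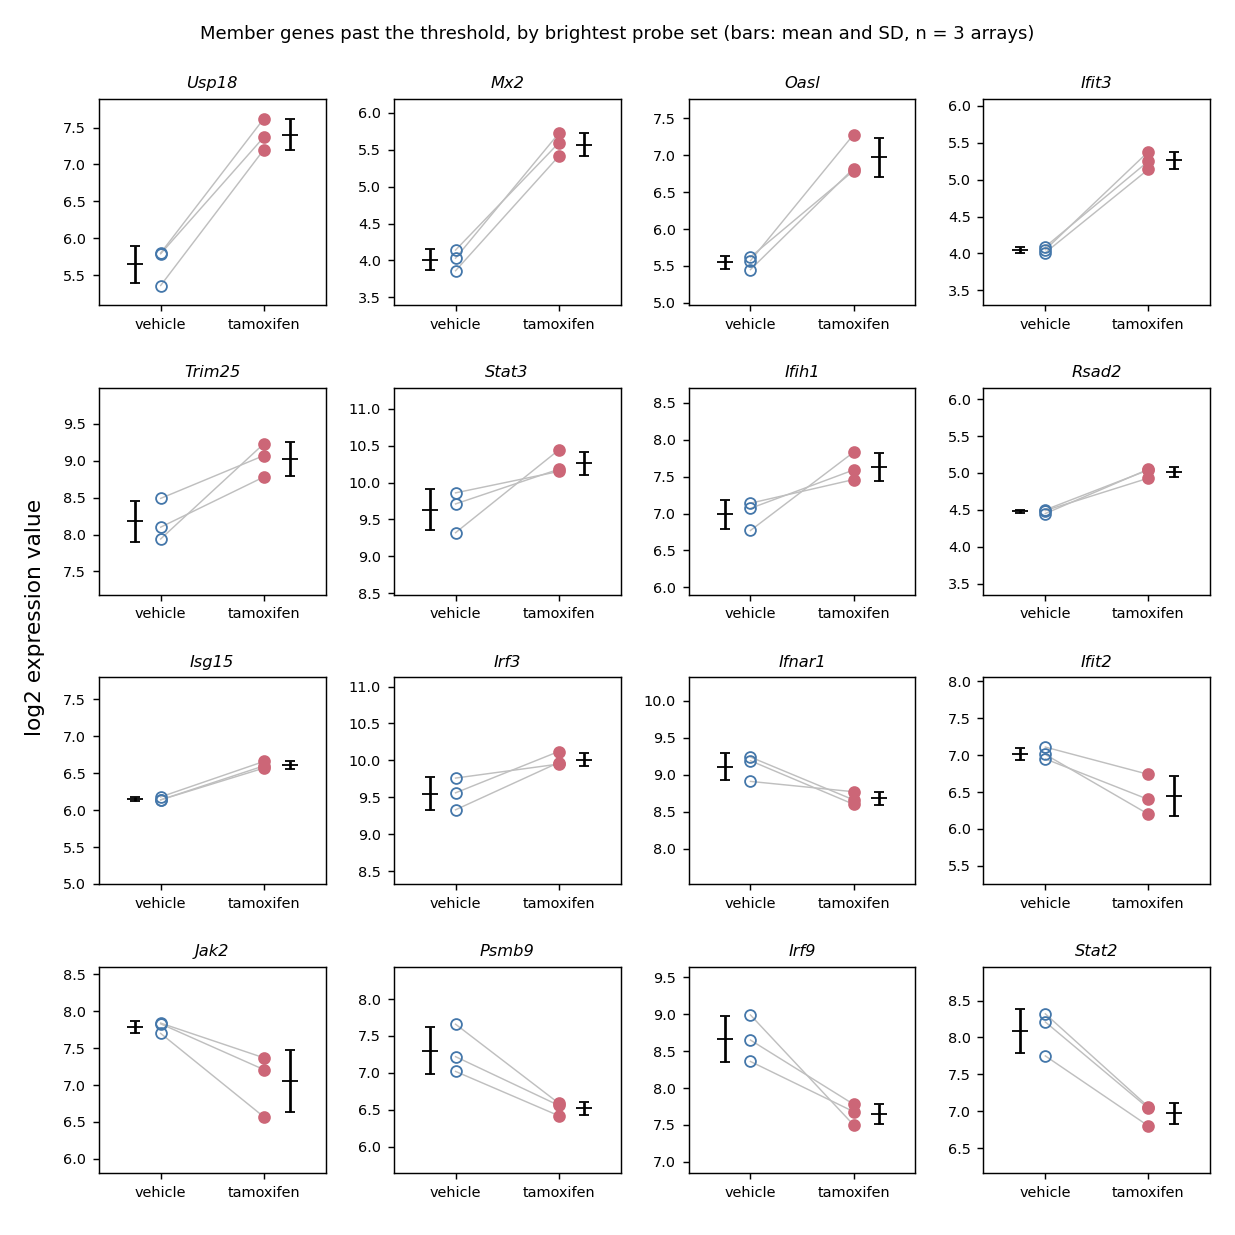
Log2 expression value (vertical axis, each panel spanning 2.8 log2 units) on the vehicle and tamoxifen arrays for the 16 members past the threshold; grey lines join arrays with the same experiment number, and black marks show mean and SD (n = 3). All lines run upward for the 10 genes that rose and downward for the 6 that fell, and the groups of all 16 are apart.

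Of the 6 members of class I antigen processing, 1 fell and 5 did not pass. In this pathway the immunoproteasome cuts proteins, the transporter of Tap1 and Tap2 carries the peptides, tapasin (Tapbp) loads them, and B2m is the light chain of every class I molecule. Psmb9, an immunoproteasome subunit, read 7.02, 7.22 and 7.66 with vehicle and 6.42, 6.56 and 6.59 with tamoxifen. Its groups did not overlap, and it fell by 0.78 ± 0.17 (adjusted p = 0.0164), a call lost on leaving out tamoxifen array 1 (adjusted p = 0.0557) or 2 (0.0540). Psmb8, another immunoproteasome subunit, read 8.28 to 8.49 with vehicle and 8.05 to 8.12 with tamoxifen, and its difference of -0.29 ± 0.09 did not pass (adjusted p = 0.0564). It passed with median centring (adjusted p = 0.0399), with array weights (0.0377) and in the fit to averaged values per gene (0.0401).

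B2m read 13.10, 13.17 and 13.13 with vehicle and 13.28, 13.29 and 13.10 with tamoxifen, a difference of 0.08 with a 95% confidence interval of -0.13 to 0.30, which turned to -0.01 with cyclic loess. Tap1 read 6.71, 6.68 and 6.72 against 6.99, 6.69 and 6.85 (0.14, interval -0.10 to 0.38). Tap2 and Tapbp showed -0.03 and -0.15. The groups of these 4 genes overlapped. Of class II, Cd74, the invariant chain, read 4.58 to 4.89 with vehicle and 4.61 to 4.87 with tamoxifen. Ciita, the master regulator of class II genes, showed 0.09 on its brighter and -0.08 on its dimmer probe set, neither past the threshold.

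Beside the members, 90 of 114 further genes of interferon signalling and antigen presentation were measured. Their list was made by known roles, but with earlier results of these data known, so its share of calls is descriptive only. Of these 12 rose and 23 fell (38.9% called, against 31.2% of all genes), with a median of -0.04. Without vehicle array 2 the number that rose was 6, and on leaving out tamoxifen array 2 or 3 it was 7. The number that fell was 15 without tamoxifen array 2 and 13 without tamoxifen array 3.

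Of 7 further receptor, kinase and STAT genes limma called none higher, also at an unadjusted p under 0.05, and 2 lower. Ifnar2, the partner chain of Ifnar1, fell by 1.17 ± 0.19 (adjusted p = 0.00614), from 9.72 ± 0.16 to 8.55 ± 0.36 (mean ± SD, n = 3 arrays), and by 0.57 on its dimmer probe set. Ifngr2, the partner chain of Ifngr1, fell by 0.63 ± 0.14 (adjusted p = 0.0175), from 10.10 ± 0.19 to 9.47 ± 0.17. Its other probe set did not pass (-0.24), nor did the mean of both (-0.43, adjusted p = 0.0897), and the call was lost on leaving out tamoxifen array 1 (adjusted p = 0.0533) or 3 (0.0587). Tyk2, a kinase of the interferon-alpha receptor, showed -0.40 ± 0.14, which did not pass (adjusted p = 0.0951) but did with the experiment number as a block (0.0308). Of the chains that bind interferon-alpha, -beta and -gamma, Ifnar1, Ifnar2 and Ifngr2 thus fell on their brightest probe sets and Ifngr1 did not pass. The chains of the interferon-lambda receptor did not pass either. Ifnlr1 showed -0.24 ± 0.15 (adjusted p = 0.311), and Il10rb, shared with the interleukin-10 receptor, showed -0.56 ± 0.28 (adjusted p = 0.205; 0.0224 with the experiment number as a block).

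The further effectors split: of 34, 6 rose and 12 fell. The chemokine gene Cxcl10, a classical interferon target, read 4.69, 4.67 and 4.98 with vehicle and 6.71, 6.63 and 6.79 with tamoxifen, a rise of 1.93 ± 0.11 (adjusted p = 0.000232). Lgals3bp, a secreted glycoprotein, rose by 1.56 ± 0.41 (adjusted p = 0.0354), with values of 6.43 to 7.95 against 8.31 to 9.25. Its call was lost on leaving out vehicle array 1 (adjusted p = 0.0648) or 2 (0.0950) and on leaving out tamoxifen array 1 (0.0560), 2 (0.0844) or 3 (0.108).

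The falls included 2 genes of the immunity-related GTPases, a family that acts against intracellular pathogens. Irgm2 read 11.14, 10.87 and 10.15 with vehicle and 8.94, 8.68 and 7.53 with tamoxifen, and fell by 2.34 ± 0.41 (adjusted p = 0.00826). Its only probe set has the suffix _a_at, so the fit without such probe sets did not cover Irgm2. Whether these probes also read Igtp was not tested. Igtp read 7.72, 8.72 and 8.57 against 6.52, 6.91 and 6.24, and fell by 1.78 ± 0.29 (adjusted p = 0.00644), and its dimmer probe set fell by 2.56 ± 0.27. The groups of both genes were apart by at least 0.81 log2 units. Irgm, of the same family, went the other way without passing (0.21 ± 0.10, adjusted p = 0.172), and its groups did not overlap.

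The partners Parp9 and Dtx3l, an ADP-ribosyltransferase and a ubiquitin ligase that act as a complex, also fell. Dtx3l read 8.82, 8.57 and 8.29 with vehicle and 6.98, 6.85 and 6.25 with tamoxifen, and fell by 1.87 ± 0.22 (adjusted p = 0.00221). Parp9 fell by 1.37 ± 0.15 (adjusted p = 0.00158), from 8.72 ± 0.12 to 7.35 ± 0.26. Trim34 fell by 1.70 ± 0.24 (adjusted p = 0.00380), and Ifi35, a partner of Nmi, fell by 1.19 ± 0.21 (adjusted p = 0.00808). Nmi itself fell by 1.07 ± 0.08 (adjusted p = 0.000545) and by 1.13 on its dimmer probe set. Nmi and the genes in the next sentences that lie outside the rule for named genes were picked after their values were seen. Eif2ak2, the kinase PKR that halts translation on double-stranded RNA, fell by 0.81 ± 0.12 (adjusted p = 0.00486). Parp14 fell by 1.17 ± 0.16 (adjusted p = 0.00375), and by 1.18 on its dimmer probe set, and its relative Parp12 fell by 0.98 ± 0.14 (adjusted p = 0.00403). Ly6e, a membrane protein that restricts virus entry, rose by 1.01 ± 0.22 (adjusted p = 0.0166), with -0.03 on its dimmer probe set, a call that did not hold when vehicle array 2 was left out (adjusted p = 0.0538). Like the call of Lgals3bp, the remaining 5 effector calls were lost on leaving out most of the single arrays. The rises of Pml (0.34) and Ccl5 (0.64) passed with single arrays left out only for vehicle array 1, and otherwise reached adjusted p-values of up to 0.0724 and 0.123. The rise of Ifi30 (0.67) passed only without vehicle array 3 or tamoxifen array 1 (otherwise up to 0.0887). Adar fell by 0.53, which passed only without vehicle array 2 (otherwise up to 0.122), and Trim26 fell by 0.39, which passed only without tamoxifen array 1 (otherwise up to 0.116). Ccl5, Adar and Trim26 also did not pass with cyclic loess or quantile normalization (adjusted p = 0.0527 to 0.0654), and the mean of both probe sets of Pml differed by 0.07 (adjusted p = 0.653).

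**Figure D3:**
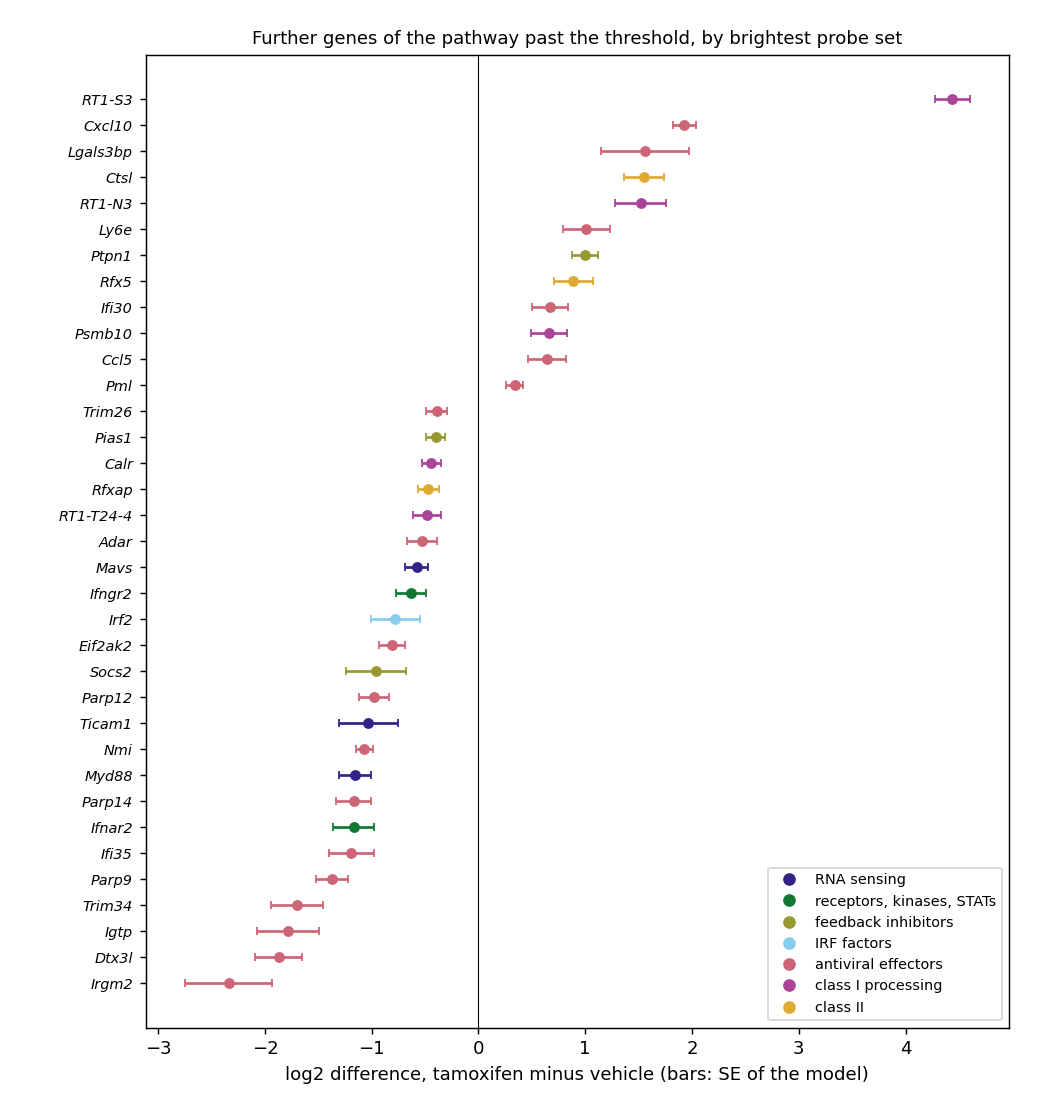
Log2 difference, tamoxifen minus vehicle (horizontal axis), of the 35 further pathway genes past the threshold, with the SE of the model as bars and roles as colours. RT1-S3 stands alone at 4.44, and the falls run down to -2.34 for Irgm2.

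Among further adaptor and sensor genes limma called none of 8 higher (1 at an unadjusted p under 0.05) and 3 lower. Myd88, the adaptor of Toll-like receptors, fell by 1.16 ± 0.15 (adjusted p = 0.00282). Mavs, the adaptor of the RNA sensors Ifih1 and RIG-I, fell by 0.58 ± 0.11 on its brightest probe set (adjusted p = 0.0117). The dimmer probe set of Mavs did not pass (-0.11, adjusted p = 0.479), and its groups overlapped. Ticam1, the adaptor TRIF, fell by 1.03 ± 0.28 (adjusted p = 0.0387), a call lost on leaving out tamoxifen array 1 (adjusted p = 0.0756), 2 (0.113) or 3 (0.118) or vehicle array 2 (0.0513). Its dimmer probe set did not pass (0.07). Traf3, which links these adaptors to kinases, went the other way: its brightest probe set showed 0.55 ± 0.17 (adjusted p = 0.0627; 0.0116 with the experiment number as a block), and its dimmer one rose by 0.40 ± 0.09 (adjusted p = 0.0208). Of 8 further feedback genes the phosphatase gene Ptpn1 rose by 1.00 ± 0.12 (adjusted p = 0.00206), and by 1.18 on its dimmer probe set, and Socs2 and Pias1 fell. Pias1, an inhibitor of STAT binding to DNA, fell by 0.40 ± 0.09, a call lost on leaving out tamoxifen array 2 (adjusted p = 0.0654) or 3 (0.0744) or vehicle array 2 (0.0723), while its dimmer probe set also fell (0.60). Socs2 fell by 0.96 ± 0.28 (adjusted p = 0.0485), a call lost with cyclic loess (adjusted p = 0.0510), without tamoxifen array 2 (0.0974) or 3 (0.0531) and on leaving out vehicle array 1 (0.0570), 2 (0.130) or 3 (0.108). Irf2, a repressor of interferon target genes, fell by 0.78 ± 0.23 (adjusted p = 0.0483), and 2 other probe sets did not pass. That call was lost with quantile normalization (adjusted p = 0.0590) and cyclic loess (0.0591), without tamoxifen array 2 (0.140) or 3 (0.147) and on leaving out vehicle array 1 (0.0731) or 3 (0.0814). Of the 4 ligand genes measured, Ifnb1, Ifng, Ifnk and Il15, limma called none, also at an unadjusted p under 0.05. Ifnb1 read 3.89 to 4.03 with vehicle and 4.04 to 4.17 with tamoxifen, and Ifng 3.55 to 3.63 over all arrays, where the lowest values on any array were about 3.

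In class I, RT1-S3 set itself apart from its neighbours in the pathway. It encodes a nonclassical class I heavy chain. Its brightest probe set read 5.56, 5.75 and 6.14 with vehicle and 10.12, 10.25 and 10.41 with tamoxifen, a rise of 4.44 ± 0.16 (adjusted p = 4.69e-05). Over the 4 probe sets, vehicle values were 4.54 to 6.14 and tamoxifen values 9.18 to 10.41, and the fold ran from 19.6 to 21.7. RT1-N3, another nonclassical class I gene, whose window lies close by on chromosome 20, read 5.76, 6.04 and 6.32 with vehicle and 7.11, 7.63 and 7.95 with tamoxifen, a rise of 1.52 ± 0.24 (adjusted p = 0.00538). Class I genes have near-identical copies that probes can share, so the copy that a probe set reads is uncertain.

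Of 16 further class I genes 3 rose and 2 fell, RT1-S3 and RT1-N3 among the first. RT1-CE5, a class I heavy chain gene, was not called on its brightest probe set (-0.11), while 1 of its 4 dimmer probe sets rose by 0.57 (adjusted p = 0.0154). RT1-T24-4 fell by 0.48 ± 0.13 (adjusted p = 0.0384), and RT1-M3-1 showed -0.53 ± 0.16 (adjusted p = 0.0545). The call of RT1-T24-4 was lost on leaving out tamoxifen array 2 (adjusted p = 0.0639) or 3 (0.0573) and on leaving out vehicle array 1 (0.0624), 2 (0.105) or 3 (0.0881). Psmb10, the third subunit of the immunoproteasome, rose by 0.66 ± 0.17 (adjusted p = 0.0316) where Psmb9 fell. Its call was lost on leaving out tamoxifen array 2 (adjusted p = 0.0985) or 3 (0.104) and on leaving out vehicle array 1 (0.0555), 2 (0.0690) or 3 (0.0890). The chaperone gene Calr fell by 0.44 ± 0.09 (adjusted p = 0.0165), a call lost on leaving out tamoxifen array 2 (adjusted p = 0.0561) or 3 (0.0574) or vehicle array 2 (0.0520).

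Of 11 further class II genes 2 rose and 1 fell. Ctsl, a lysosomal protease, read 9.12, 9.38 and 9.81 with vehicle and 10.76, 11.12 and 11.08 with tamoxifen, a rise of 1.55 ± 0.19 (adjusted p = 0.00249), and its dimmer probe set rose by 1.32. The transcription factor genes Rfx5 and Rfxap, which encode subunits of a single complex at class II promoters, went apart: Rfx5 rose by 0.89 ± 0.18 (adjusted p = 0.0127) and Rfxap fell by 0.47 ± 0.10 (adjusted p = 0.0159). The Rfxap call was lost on leaving out tamoxifen array 3 (adjusted p = 0.0540). None of the class II chain genes measured was called on its brightest probe set. Of these RT1-Db1 showed -0.59 ± 0.19 (adjusted p = 0.0717, and 0.0365 with the experiment number as a block).

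**Figure D4:**
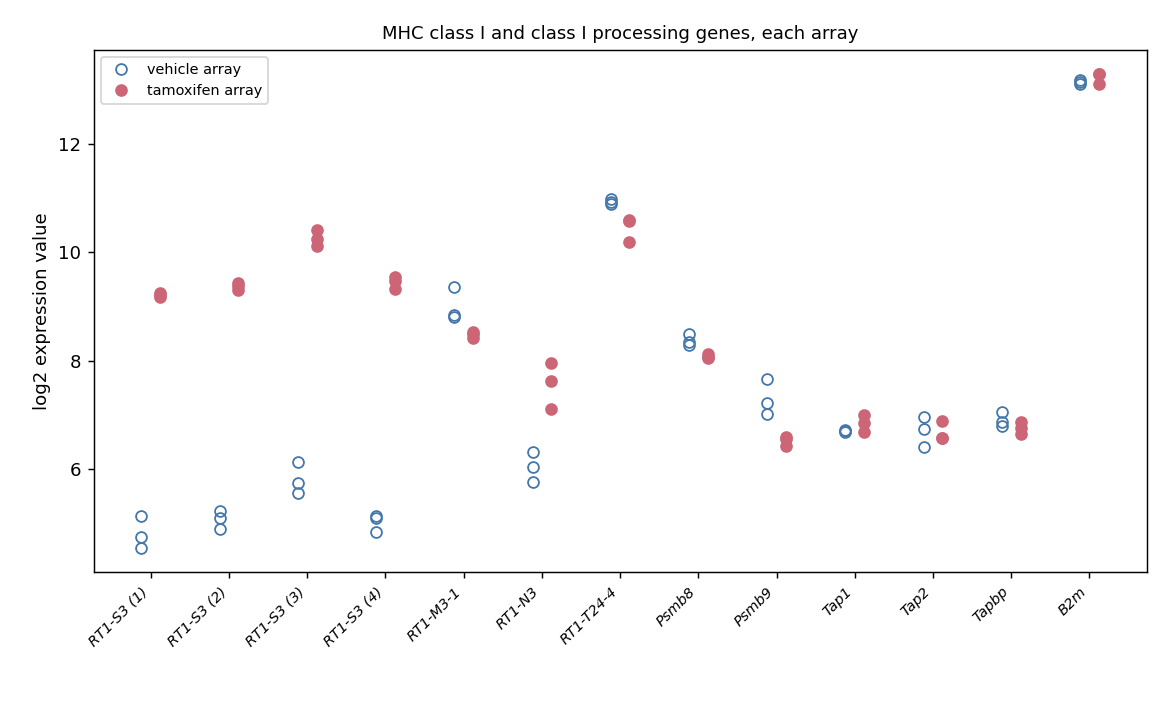
Log2 expression value (vertical axis) on each vehicle array (open) and tamoxifen array (filled) for the 4 probe sets of RT1-S3, 3 other class I heavy chain genes and the 6 class I processing members. The tamoxifen values of RT1-S3 lie between 9.18 and 10.41, above vehicle values of 4.54 to 6.14, while B2m, Tap1, Tap2 and Tapbp overlap between the groups; levels of different probe sets cannot be set against each other.

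Transcripts of 10 known targets of ERK, the kinase downstream of Raf, were measured, and 10 rose, with 4.53 ± 0.08 for Dusp6, 3.19 ± 0.16 for Spry4 and 4.51 ± 0.33 for Egr1. The Schwann cell markers S100b and Sox10 were bright in both groups (11.83 to 13.18 and 10.54 to 12.41), but lower with tamoxifen. S100b showed -0.76 ± 0.22 (adjusted p = 0.0459), and Sox10 showed -0.90 ± 0.34, which did not pass (adjusted p = 0.104). Of 9 Schwann markers measured 1 rose (Egr2, 4.12) and 3 fell (S100b, Ngfr at -1.53 and Cnp at -1.26). The summed linear values of the 9 markers were 33500 to 43700 with vehicle and 14500 to 22300 with tamoxifen. In bulk RNA, fewer cells of a type and less RNA per cell cannot be told apart. Of 17 macrophage markers, of the kind that would bring class II transcripts, limma called none (2 higher and 0 lower at an unadjusted p under 0.05). Their summed values were 701 to 751 with vehicle and 746 to 786 with tamoxifen. The dimmest of them, Adgre1, read 3.39 to 3.48, near the bottom of the scale, and the brightest were Laptm5 at 7.24 to 7.80 and Lyz2 at 6.15 to 6.55, where the median of an array was 6.3 to 6.37. Of 8 lymphocyte and 7 endothelial markers limma called none, also at an unadjusted p under 0.05. Of 10 fibroblast markers 3 rose and 3 fell. Those that rose were Fbln1 (1.61), Pdgfra (0.52) and Pi16 (0.37), and those that fell were Col3a1 (-2.38), Col1a1 (-1.23) and Col1a2 (-0.46). The summed linear values of the 10 markers were 17300 to 22700 with vehicle and 10800 to 12800 with tamoxifen. In such sums the brightest markers weigh most. The fibroblast markers ranged widely, from Lum at 3.32 to 3.54 and Dcn at 4.01 to 4.28 to Col1a1 at 11.71 to 13.35 and Col1a2 at 12.74 to 13.54. The part of the Schwann and fibroblast marker changes in the results on the interferon genes was not tested.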

How the data were processed

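RNA of 6 samples (3 vehicle, 3 tamoxifen) was hybridised to Affymetrix rat arrays. Each deposited value is a log2 expression value of a probe set. The submitters' processing notes name RMA, a method that subtracts background, brings arrays to a common distribution and combines the probes of a set; the sources used here give no version. Values ran from about 3 to 14.58. RMA compresses low values, so changes of dim genes are understated, and no detection calls were used. The number of arrays limits the precision.

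All 31042 probe sets other than 57 manufacturer controls were fitted with limma 3.58.1 in R 4.3.3 (lmFit, eBayes, two-sided, no covariates), with Benjamini-Hochberg adjustment over all of them and a threshold of 0.05. GEO's platform annotation gave 1 symbol to 20826 probe sets, several to 436 and none to 9780; 20758 identifiers matched RefSeq (GRCr8), and 0 symbols changed. A gene was read by its probe set of highest mean over all arrays. Values in every array are given for members with a probe set past the threshold and for 8 fixed members. Of the further pathway genes, the 12 largest changes are named, and Tyk2, Ifnar2 and Ifngr2 whatever their result. The members and lists were chosen with earlier results of these data known. Deviations from group means correlated at 0.262, 0.198 and 0.279 between arrays of the same experiment number, so the numbers may pair the arrays. The main fit does not use this pairing, and values are from the main fit unless a block is named. Blocking on the experiment number was tried as an alternative. So were leaving out single arrays, other scalings, a filter on dim probe sets, variance models, array weights, a minimum fold, probe set suffixes and averaging all probe sets of a gene. P-values of the main fit set the difference between the groups against the spread of the arrays within a group. On simulated data with 200 of 31042 probe sets changed, the tamoxifen comparison recovered 15.6% of changes of 0.5 log2 units and 68.8% of 1. In the data themselves 24.4% of probe sets were called. The adjustment is stricter where few probe sets change, so the simulated shares are not the detection rates of this comparison.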

Additional observations from a re-analysis of the deposited data

How the results depend on the processing

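Of 54 called genes (16 members, 35 further genes and 3 ERK targets), 15 kept their call under every alternative that tested them and 30 under every removal of a single array, and no called gene changed direction. The 4 members whose call also held against a minimum fold of 1.5 were Usp18, Mx2, Oasl and Ifit3. In that test 833 probe sets were higher and 615 lower in all, of the members 4 genes (4 probe sets) were higher and 0 genes (2 probe sets) lower, and of the further genes 3 were higher and 5 lower. With the filter on dim probe sets 6 member genes (6 probe sets) were higher, since Ifit3, Mx2, Oasl and Rsad2 lay below the mean of 6.37 and were not tested. Leaving out single arrays gave 2668 to 3771 probe sets lower in all. For the members it gave 6 to 10 genes and 6 to 10 probe sets higher, and 2 to 4 genes and 4 to 9 probe sets lower. For the further genes it gave 6 to 10 higher and 13 to 21 lower. With the experiment as a block (replicate block) 14 of the 16 member calls were kept, Ifnar1 (adjusted p = 0.0625) and Stat3 (0.0589) were lost, the calls of the 35 further genes were kept, and 6 further genes were gained (15 higher and 26 lower in all), namely Tyk2, Il10rb, Traf3, RT1-Db1, Irf5 and Rtp4. Differences near 0 changed sign in genes that were not called: B2m (-0.01), Irf1 (0.09) and Cd74 (-0.01) with cyclic loess, Irf1 (0.07) and Cd74 (-0.01) with quantile normalization, and Ciita (-0.08) without probe sets of the suffixes _s_at, _x_at and _a_at. Leaving out single arrays gave -0.01 to 0.12 for Socs1, -0.40 to 0.02 for Socs3, -0.03 to 0.01 for Irf1, -0.11 to 0.01 for Irf7, -0.13 to 0.07 for Ifi44, -0.08 to 0.74 for Ifitm3, -0.17 to 0.10 for Tap2, -0.02 to 0.14 for Cd74 and -0.03 to 0.18 for Ciita. The cause of these changes, and of those given beside single genes, was not tested. The scalings moved the median of all probe sets from 0.03 to between -0.01 and 0.01.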
